A study of Homo sapiens with 9 samples.

Results

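The genes described here make the building blocks of DNA and RNA, and they were followed in HepG2 liver cancer cells after knockdown of TRIB3. The group held 31 of the 24204 gene symbols in the expression table, listed by name for their role, with earlier results of these data known: 12 supply deoxynucleotides, 5 make pyrimidines, 11 make purines and 3 belong to the cytosolic folate cycle. All 31 were expressed well enough to be tested, among 11265 tested genes. HepG2 is a human hepatoblastoma-derived line that is widely used as a liver cancer model. Cells were given lentivirus for 48 h, coding either for a control short hairpin (shCtrl) or for a hairpin that targets TRIB3 (2 of these, shTRIB3-1 and shTRIB3-2), and then puromycin for 48 h, so that every group, the control included, was infected and drug-selected. Each group had 3 libraries. Per the labels, cells grew in high-glucose DMEM with serum. The study's methods describe RNA from cells deprived of glutamine, in a passage shared with its glutamine-deprivation series. Its discussion reports altered repair gene expression after TRIB3 depletion without glutamine deprivation. The methods do not state the medium of these libraries separately, so the medium at harvest is uncertain. The methods name pLKO.1 or FH1t(UTG) as hairpin vectors and do not say which was used for these libraries.

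Proliferating cells build purines and pyrimidines from small precursors, with nitrogen from glutamine and aspartate and one-carbon units carried by folate. Ribonucleotide reductase then turns ribonucleotides into deoxynucleotides, thymidylate synthase and the thymidine kinases feed the thymidine branch, and salvage enzymes return free bases and nucleosides to the pool. Several enzymes of deoxynucleotide supply are made mainly by cells that are replicating their DNA, and many anticancer drugs block enzymes of these pathways. TRIB3 encodes a pseudokinase that is induced by amino acid shortage.

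Levels are given as FPKM, fragments scaled for transcript length and for the mapped fragments of the library, and can therefore be set side by side between genes. Changes are log2 fold changes of FPKM + 0.1 from limma, fitted to the 9 libraries together, with two-sided p-values adjusted by Benjamini-Hochberg over the tested genes. "Lower" and "higher" mean an adjusted p under 0.05, and "past the fold threshold" adds an absolute log2 fold change above 1. The libraries held 34206726 to 36311029 fragments, and the deepest exceeded the shallowest 1.06 times. Of 9 hepatocyte markers, 9 reached at least 1 FPKM in every library, while 0 of 5 fibroblast, 0 of 4 endothelial and 1 of 4 leukocyte markers (CD68) did. TRIB3 itself stood at 67.9, 65.8 and 66.6 FPKM in shCtrl, 34.1, 32.7 and 34.0 in shTRIB3-1 and 20.6, 20.7 and 20.4 in shTRIB3-2, so the libraries carried the knockdown their labels state and shTRIB3-2 was the stronger hairpin.

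Most nucleotide synthesis genes fell. With shTRIB3-1, 24 of 31 were lower (41.5% of tested genes were lower), 4 were higher (32.9% of tested genes) and 3 did not pass the test. With shTRIB3-2, the counts were again 24 lower (40.5% of tested genes), 4 higher (35.4%) and 3 that did not pass. Both hairpins lowered 23 members and raised the same 4, which were DCTD, CMPK1, ADSL and IMPDH1. The share of tested genes that passed in 1 direction with both hairpins was not computed. The 3 control libraries served both comparisons, so these counts are not independent of each other. NME1 and GART passed with neither hairpin, TK2 with shTRIB3-1 only and PPAT with shTRIB3-2 only. The median log2 fold change of the members was -0.48 with shTRIB3-1 and -0.51 with shTRIB3-2, against -0.056 and -0.035 over the tested genes.

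The steepest falls were those of TK1, RRM2 and RRM1, of deoxynucleotide supply. Past the fold threshold, 5 members were lower with shTRIB3-1 (6.10% of tested genes) and 6 with shTRIB3-2 (6.27%), namely TK1, RRM2, RRM1, DTYMK and CAD with both and DUT with shTRIB3-2 in addition. All of these but CAD supply deoxynucleotides. With shTRIB3-2, DHODH, PRPS2 and PFAS lay just short of the threshold, and the count became 9, with these 3 added, when FPKM was rescaled to TPM, with a pseudocount of 0.01 and with limma voom, of which 5 supply deoxynucleotides. Leaving out 1 library gave 6 to 8. No member rose past it: limma gave 0 with shTRIB3-1 (5.39% of tested genes) and 0 with shTRIB3-2 (6.06%), and so did an unadjusted p under 0.05 and limma voom on fragment counts. Within the 12 genes of deoxynucleotide supply, 9 and 8 were lower with shTRIB3-1 and shTRIB3-2, with a median of -0.67 for each hairpin. The 5 pyrimidine genes were lower throughout, with a median of -0.40 for each hairpin. Of the 11 purine genes 7 and 8 were lower, with medians of -0.39 and -0.40, and the 3 folate genes were lower with both hairpins, with medians of -0.66 and -0.87. The shares to set beside these list counts are 41.5% and 40.5%, those of tested genes lower with shTRIB3-1 and shTRIB3-2.

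**Figure D1:**
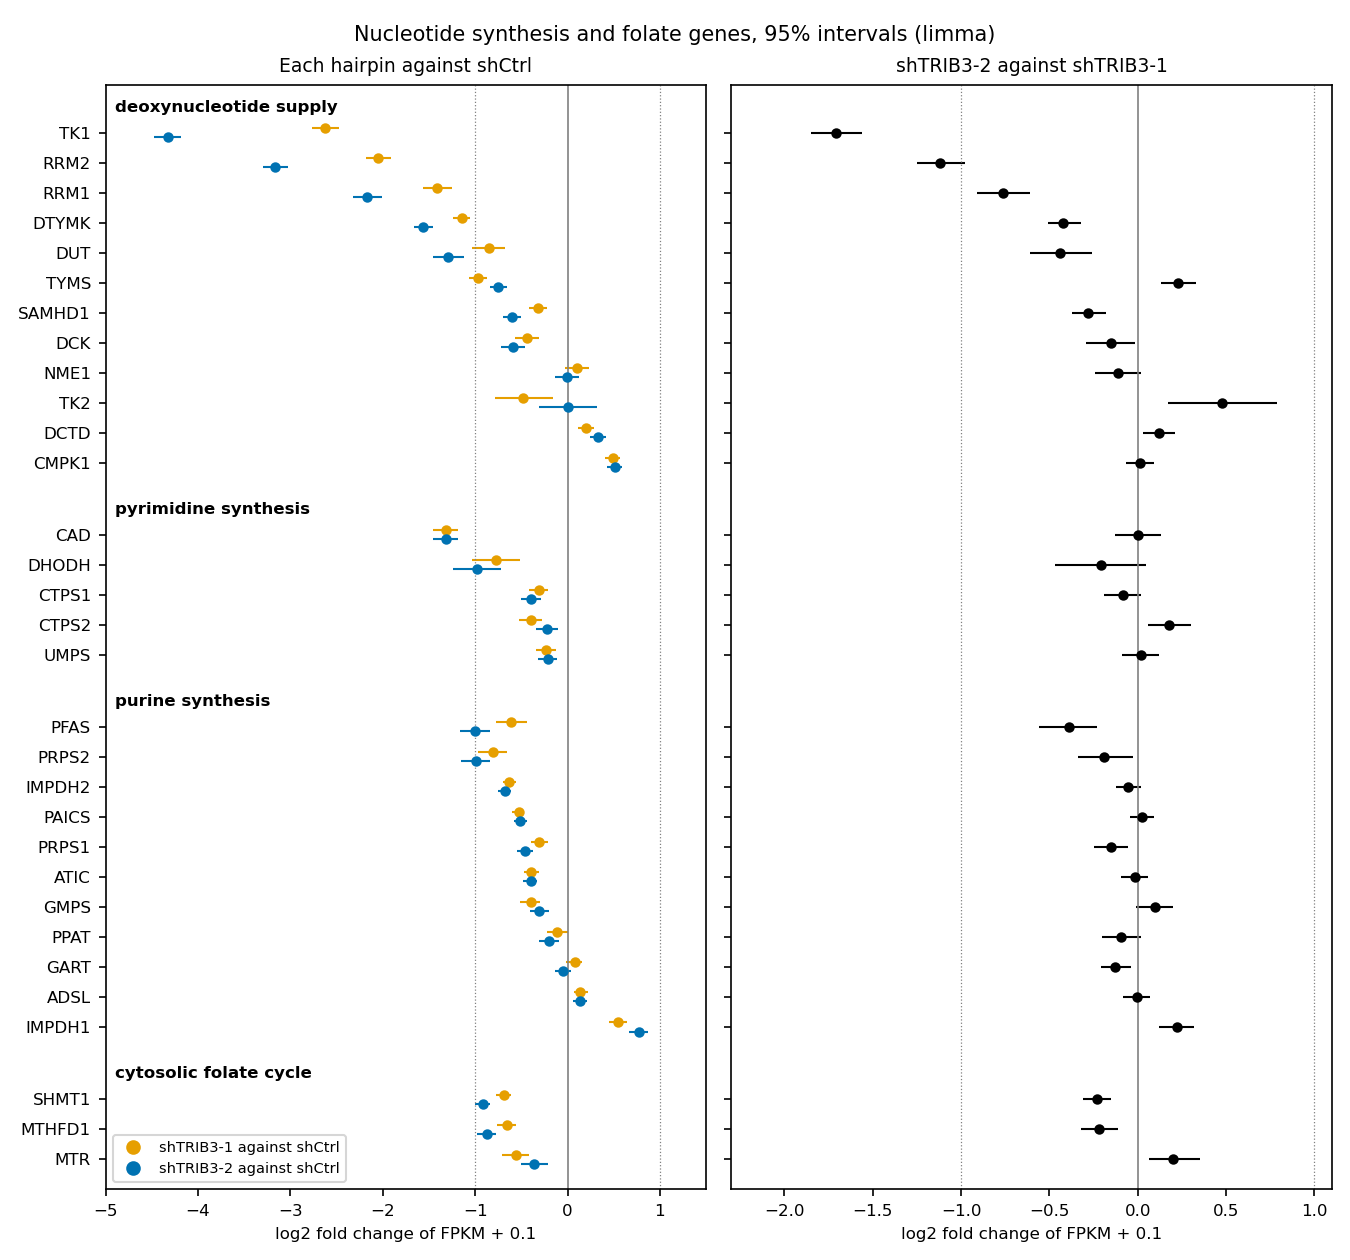
Log2 fold change of FPKM + 0.1 for the 31 genes by role, with limma 95% intervals, for each hairpin against shCtrl (left; orange shTRIB3-1, blue shTRIB3-2) and between the hairpins (right); dotted lines mark a log2 fold change of 1 in either direction. TK1 stands lowest, at -2.62 and -4.32, and IMPDH1 highest, at 0.55 and 0.77.

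The promoters of 3 members that fell past the fold threshold in deoxynucleotide supply, and of CAD, are shown because they differ in which of the searched short motifs they hold. They are RefSeq sequences on GRCh38.p14, 5′ to 3′ in the direction of transcription, and end at the base before the RefSeq start. TK1 lies on the minus strand at chr17:78187205-78187454, RRM2 on the plus strand at chr2:10122619-10122738, RRM1 on the plus strand at chr11:4094435-4094684 and CAD on the plus strand at chr2:27217179-27217368. Capitals mark CCAAT boxes, an E2F element (TTCCCGCC), a CHR element (TTCAAA, the reverse complement of TTTGAA) and, in CAD, a stretch with runs of C that matches a G-quadruplex pattern on the opposite strand.
TK1: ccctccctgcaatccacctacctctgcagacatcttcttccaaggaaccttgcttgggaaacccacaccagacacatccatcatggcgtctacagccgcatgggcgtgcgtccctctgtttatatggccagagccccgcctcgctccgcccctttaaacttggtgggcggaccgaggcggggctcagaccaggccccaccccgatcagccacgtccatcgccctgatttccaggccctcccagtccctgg
RRM2: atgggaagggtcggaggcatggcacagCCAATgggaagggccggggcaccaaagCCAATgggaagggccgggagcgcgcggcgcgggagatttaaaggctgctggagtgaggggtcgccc
RRM1: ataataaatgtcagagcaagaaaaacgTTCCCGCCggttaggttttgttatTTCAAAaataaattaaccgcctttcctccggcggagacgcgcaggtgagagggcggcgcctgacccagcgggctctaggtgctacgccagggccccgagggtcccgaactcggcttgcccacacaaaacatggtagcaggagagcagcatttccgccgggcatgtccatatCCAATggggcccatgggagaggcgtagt
CAD: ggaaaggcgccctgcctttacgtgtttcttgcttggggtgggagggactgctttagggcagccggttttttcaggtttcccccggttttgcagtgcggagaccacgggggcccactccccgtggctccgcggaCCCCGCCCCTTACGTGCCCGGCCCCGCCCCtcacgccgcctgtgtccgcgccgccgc

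Motifs were searched by exact letters on both strands, from 250 bases before to 50 bases after the RefSeq start, for the 29 members with a promoter in the RefSeq table (ADSL and IMPDH2 had none). CCAAT was present in 12 members (41.4%, against 35.7% of 27305 promoters and 37.0% of the promoters of tested genes). RRM2, GART and MTR held 3 copies each, and DTYMK, SAMHD1, SHMT1 and MTHFD1 held 2 each. The first copy of RRM2 begins before the printed stretch and is not capitalised. The E2F letters GGCGGGAA were found in RRM1 and PRPS1 (6.90%, against 3.18% and 5.24% in the same order), and TTTCGCGC or TTTGGCGC in DCK only (3.45%, against 1.18% and 2.17%). The CHR letters TTTGAA were found in RRM1 and UMPS (6.90%, against 15.4% and 9.56%). The E-box CACGTG was found in 6 members, DCK, NME1, DHODH, PPAT, ATIC and MTHFD1 (20.7%, against 7.43% of promoters and 10.3% of the promoters of tested genes). The ATF4 composite letters TTGCATCA were found in 0 members, against 0.923% of promoters and 0.473% of those of tested genes. The G-quadruplex pattern, 4 runs of at least 3 G with 1 to 7 bases between runs on either strand, was found in 8 members (27.6%, against 24.1% of promoters and 33.7% of those of tested genes), among them CAD, PFAS and IMPDH1.

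Members with and without a motif overlapped in their response. TK1, the lowest member, held none of the searched letters. The median log2 fold change was -0.67 with shTRIB3-1 and -0.90 with shTRIB3-2 for members with CCAAT, against -0.40 for each hairpin in members without it. With shTRIB3-1, members with CCAAT ran from -2.05 to 0.10 and those without from -2.62 to 0.55. Members with the G-quadruplex pattern had medians of -0.42 and -0.50, against -0.53 and -0.51 without it. These matches describe letters in a window and are not evidence of binding.

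TK1, the cytosolic thymidine kinase that returns thymidine to the deoxynucleotide pool, had the steepest fall. It read 38.6, 40.4 and 40.3 FPKM in shCtrl, 6.52, 6.34 and 6.33 in shTRIB3-1 and 1.86, 2.14 and 1.70 in shTRIB3-2. The groups did not overlap, and TK1 retained 16.1% and 4.77% of its control mean. The log2 fold changes were -2.62 (SE 0.068, limma adjusted p 1.55e-11) and -4.32 (adjusted p 2.35e-13). TK1 also differed between the hairpins, lower in shTRIB3-2 by -1.71 on the log2 scale (adjusted p 5.49e-09), on 101 to 126 fragments per library in that group.

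RRM2 and RRM1 encode the small and the large subunit of ribonucleotide reductase, which makes deoxynucleotides from ribonucleotides. RRM2 read 43.0, 42.8 and 44.2 FPKM in shCtrl, 10.4 in each of the 3 libraries of shTRIB3-1, and 4.97, 5.09 and 4.18 in shTRIB3-2. Its log2 fold changes were -2.05 (limma adjusted p 4.91e-11) and -3.17 (adjusted p 1.04e-12), leaving 24.0% and 11.0% of the control mean. RRM1 read 25.7, 24.6 and 24.9 FPKM in shCtrl, 8.65, 9.52 and 10.1 in shTRIB3-1, and 5.44, 5.03 and 6.10 in shTRIB3-2. Its log2 fold changes were -1.41 (adjusted p 3.14e-09) and -2.17 (adjusted p 6.06e-11). For both subunits every shTRIB3-2 library lay below every shTRIB3-1 library, and each of those below every control.

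The balance of the subunits shifted. The ratio of RRM2 to RRM1 was 1.67 to 1.78 in shCtrl, 1.03 to 1.20 in shTRIB3-1 and 0.685 to 1.01 in shTRIB3-2. RRM2B encodes the alternative small subunit, which p53 induces and which serves cells outside S phase, and its mean was 21.9 ± 0.30 FPKM for shCtrl, 16.0 ± 0.586 for shTRIB3-1 and 22.6 ± 0.394 for shTRIB3-2 (SD, n = 3). RRM2B was lower after the first hairpin (log2 fold change -0.45, limma adjusted p 2.47e-07) and did not pass with shTRIB3-2 (0.046, adjusted p 0.262). The ratio of RRM2 to RRM2B therefore went from 1.93 to 2.03 in shCtrl to 0.627 to 0.671 and 0.181 to 0.227. With 3 libraries against 3, an exact permutation test of a ratio cannot give a p below 0.10, so ratios are given by their ranges.

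DTYMK, thymidylate kinase, adds the second phosphate to thymidine monophosphate. It read 39.4, 44.8 and 42.6 FPKM in shCtrl, 18.8, 19.2 and 19.1 in shTRIB3-1 and 14.7, 14.0 and 14.0 in shTRIB3-2, with log2 fold changes of -1.14 (limma adjusted p 4.24e-10) and -1.56 (adjusted p 2.31e-11). DUT, the dUTPase that keeps uracil out of DNA, read 16.4, 17.4 and 18.4 FPKM in shCtrl, 9.54, 9.03 and 10.2 in shTRIB3-1 and 7.55, 6.12 and 7.56 in shTRIB3-2. Its log2 fold changes were -0.85 (adjusted p 9.35e-07) and -1.29 (adjusted p 1.83e-08), and 14.5% of its exon bases lie antisense to DUT-AS1, whose fragments could not be told apart if counting ignored the strand. The study's methods describe strand-specific libraries, whereas the labels name another library kit without mentioning the strand, so whether these libraries kept it is uncertain. The 3 groups did not overlap for either gene, with shTRIB3-2 the lowest.

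TYMS, the thymidylate synthase that makes thymidine monophosphate with a folate cofactor, broke this order. Its mean was 79.8 ± 2.17 FPKM for shCtrl, 40.6 ± 2.04 for shTRIB3-1 and 47.6 ± 2.56 for shTRIB3-2 (SD, n = 3), and its log2 fold changes were -0.97 (limma adjusted p 1.79e-09) and -0.75 (adjusted p 1.72e-08). TYMS was thus higher in the hairpin that lowered its neighbours in the pathway more, by 0.23 (adjusted p 0.00154). Of its exon bases, 47.9% lie antisense to ENOSF1 or TYMSOS, so its values are uncertain where counting ignored the strand.

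**Figure D2:**
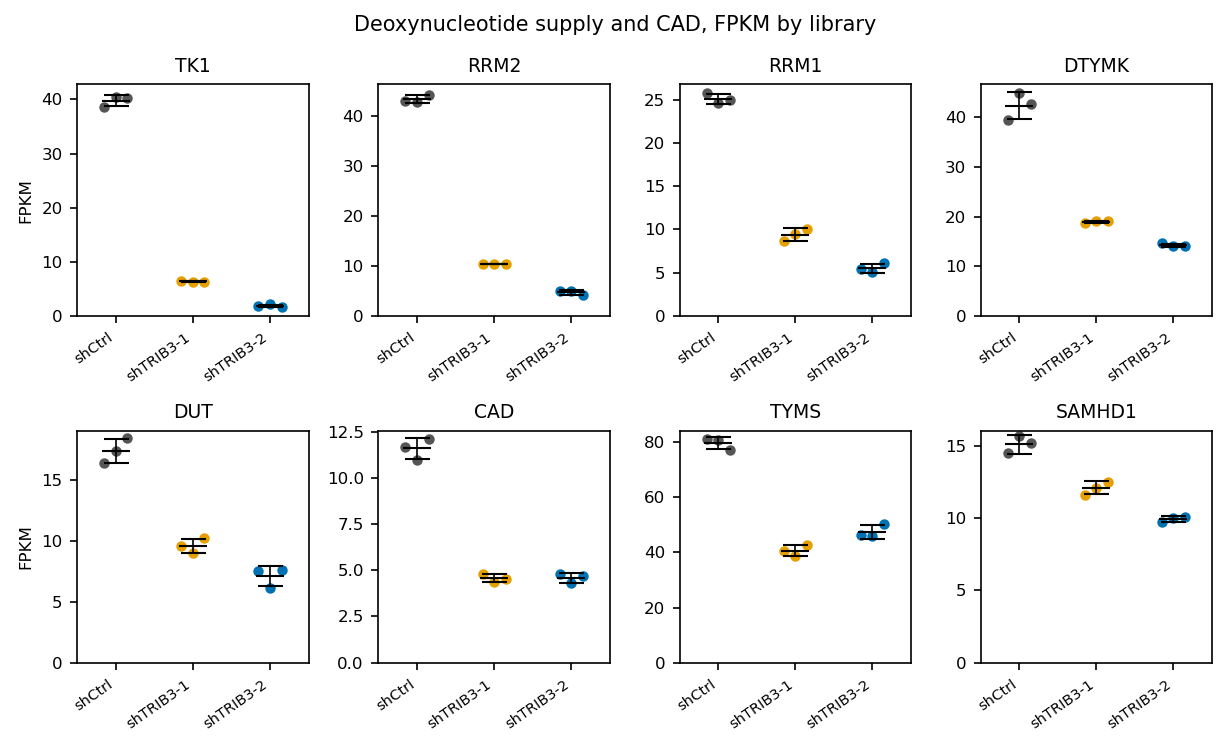
FPKM in each library (points) with group mean and SD (bars) for 8 genes, by group (grey shCtrl, orange shTRIB3-1, blue shTRIB3-2). The first 6 fell past the fold threshold with at least 1 hairpin, and TYMS is higher in shTRIB3-2 (47.6 FPKM on average) than in shTRIB3-1 (40.6).

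Other genes of deoxynucleotide supply changed less or rose. DCK, deoxycytidine kinase, was lower by -0.44 and -0.59 with shTRIB3-1 and shTRIB3-2 (limma adjusted p 3.61e-05 and 2.39e-06). SAMHD1, which breaks deoxynucleotides down, was lower by -0.32 and -0.60 (adjusted p 3.44e-05 and 1.13e-07). DCTD, the dCMP deaminase that feeds the thymidylate branch, was higher by 0.20 and 0.33 (adjusted p 7.54e-04 and 1.42e-05).

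CMPK1, the UMP/CMP kinase, was the most abundant member and rose with both hairpins. It read 118, 119 and 124 FPKM in shCtrl, 165, 169 and 175 in shTRIB3-1 and 171, 164 and 178 in shTRIB3-2. The knockdown libraries lay above the controls and overlapped each other, with log2 fold changes of 0.49 with shTRIB3-1 and 0.51 with shTRIB3-2 (limma adjusted p 1.17e-07 and 8.09e-08). NME1, a nucleoside diphosphate kinase, gave 0.10 and -0.01 (adjusted p 0.142 and 0.913). It shares 18.7% of its exon bases with the NME1-NME2 readthrough, and NME2, its close relative, was listed at 0.390 to 1.20 FPKM and not tested.

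TK2, the mitochondrial thymidine kinase, did not follow TK1. It read 1.79, 2.26 and 1.97 FPKM in shCtrl, 1.28, 1.35 and 1.62 in shTRIB3-1 and 2.02, 1.63 and 2.44 in shTRIB3-2. With shTRIB3-1 the log2 fold change was -0.48 (limma adjusted p 0.00943), and with shTRIB3-2 it was 0.0028 with a 95% interval of -0.31 to 0.32 (adjusted p 0.987). The difference between the hairpins was 0.48 (adjusted p 0.0165), but the nearest libraries were 1.62 and 1.63 FPKM, and the adjusted p rose to 0.0608 without replicate 1 of shTRIB3-1 and to 0.0733 without replicate 3 of shTRIB3-2. The ratio of TK1 to TK2 went from 17.9 to 21.6 in shCtrl to 3.92 to 5.09 in shTRIB3-1 and 0.695 to 1.31 in shTRIB3-2. Of TK2 exon bases, 15.6% lie antisense to other annotated genes.

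CAD, the enzyme of the first steps of pyrimidine synthesis, was lower by nearly the same log2 fold change with both hairpins. It read 11.7, 11.0 and 12.1 FPKM in shCtrl, 4.82, 4.39 and 4.54 in shTRIB3-1 and 4.78, 4.29 and 4.68 in shTRIB3-2. The log2 fold change was -1.32 with each (limma adjusted p 1.51e-09 and 1.23e-09), and the 95% interval of the difference between the hairpins ran from -0.13 to 0.13. CAD thus retained 39.4% of its control mean in both groups, which overlapped each other and lay below every control.

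DHODH, the mitochondrial step of the pathway, was lower by -0.77 and -0.98 (limma adjusted p 8.46e-05 and 9.53e-06), from a control level of 1.91 ± 0.245 FPKM (SD, n = 3). UMPS, which makes UMP, had the smallest fall of the pathway, at -0.23 and -0.21 (adjusted p 0.00103 and 0.00169).

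CTPS1 and CTPS2 both make CTP with nitrogen from glutamine. CTPS1 read 21.3, 19.8 and 19.6 FPKM in shCtrl, 16.4, 16.1 and 16.3 in shTRIB3-1 and 15.9, 14.3 and 15.8 in shTRIB3-2, with log2 fold changes of -0.31 with shTRIB3-1 and -0.40 with shTRIB3-2 (limma adjusted p 7.40e-05 and 8.78e-06). CTPS2 read 7.13, 7.16 and 6.87 FPKM in shCtrl, 5.72, 5.20 and 5.06 in shTRIB3-1 and 6.15, 5.88 and 6.12 in shTRIB3-2, with -0.40 and -0.22 (adjusted p 3.45e-05 and 0.00353). For each gene all knockdown libraries lay below the controls. The ratio of CTPS1 to CTPS2 was 2.76 to 2.99 in shCtrl, overlapping the 2.86 to 3.21 of shTRIB3-1, and 2.43 to 2.59 in shTRIB3-2.

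Purine synthesis starts with PRPP, made by PRPS1 and PRPS2, and the less abundant form had the larger log2 fold changes. PRPS1 read 23.4, 24.1 and 24.3 FPKM in shCtrl, 18.4, 19.5 and 20.0 in shTRIB3-1 and 16.9, 18.2 and 17.0 in shTRIB3-2, with log2 fold changes of -0.31 with shTRIB3-1 and -0.46 with shTRIB3-2 (limma adjusted p 3.59e-05 and 9.27e-07). PRPS2 read 9.02, 9.18 and 9.15 FPKM in shCtrl, 4.63, 5.29 and 5.61 in shTRIB3-1 and 4.42, 4.28 and 4.90 in shTRIB3-2, with -0.81 and -0.99 (adjusted p 6.79e-07 and 8.89e-08). The ratio of PRPS1 to PRPS2 was 2.59 to 2.66 in shCtrl, 3.57 to 3.97 in shTRIB3-1 and 3.47 to 4.26 in shTRIB3-2, so it was above the controls in every knockdown library.

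PPAT, the amidotransferase of the first committed purine step, and PAICS, which acts later in the pathway, are head-to-head neighbours on chromosome 4. PPAT runs on the minus strand from 56393362 to 56435615 and PAICS on the plus strand from 56435741 to 56464578, which leaves 125 bases between their annotated starts at chr4:56435616-56435740. This stretch is shown, on the strand of PPAT, because it separates neighbours with different log2 fold changes. It holds none of the searched letters.
PPAT-PAICS: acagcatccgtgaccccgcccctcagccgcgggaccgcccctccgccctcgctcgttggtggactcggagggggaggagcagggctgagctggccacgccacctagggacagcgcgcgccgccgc

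PPAT read 13.2, 13.2 and 13.4 FPKM in shCtrl, 11.8, 12.8 and 12.4 in shTRIB3-1 and 12.3, 10.8 and 11.6 in shTRIB3-2. Its log2 fold changes were -0.11 (limma adjusted p 0.0767) and -0.20 (adjusted p 0.00343). PAICS read 45.1, 43.9 and 43.2 FPKM in shCtrl, 30.6, 30.3 and 30.2 in shTRIB3-1 and 30.9, 31.6 and 30.3 in shTRIB3-2, with -0.53 and -0.51 (adjusted p 1.10e-08 and 1.46e-08). In every knockdown library the ratio of PAICS to PPAT was below the controls, and it went from 3.22 to 3.42 in shCtrl to 2.38 to 2.59 and 2.51 to 2.93.

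The other steps to IMP were uneven. PFAS, a glutamine-using amidotransferase, was lower by -0.61 and -1.0 (limma adjusted p 1.15e-05 and 1.07e-07), the latter just short of the fold threshold, and by -0.39 between the hairpins (adjusted p 0.00107). ATIC, which closes the purine ring, was lower by -0.39 and -0.40 (adjusted p 7.75e-07 and 4.71e-07). GART, which carries out several of the steps, gave 0.077 and -0.049 (adjusted p 0.103 and 0.290). ADSL, adenylosuccinate lyase, was higher by 0.14 and 0.13 (adjusted p 0.00271 and 0.00356), a small rise that with shTRIB3-1 became 0.087 (adjusted p 0.0679) when FPKM was rescaled to TPM. It shares 11.1% of its exon bases with another annotation on its strand.

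The branch to guanine nucleotides showed a pair of isoenzymes that moved in opposite directions. IMPDH1 and IMPDH2 both convert IMP to XMP, the rate-limiting step towards GTP, and IMPDH2 is usually the form of proliferating cells. IMPDH1 read 20.8, 19.7 and 19.6 FPKM in shCtrl, 29.5, 28.9 and 29.5 in shTRIB3-1 and 36.7, 33.0 and 32.9 in shTRIB3-2. IMPDH2 read 86.2, 84.4 and 83.8 FPKM in shCtrl, 54.9, 53.6 and 55.9 in shTRIB3-1 and 51.0, 54.8 and 52.8 in shTRIB3-2. IMPDH1 rose by 0.55 and 0.77 (limma adjusted p 3.03e-07 and 1.17e-08), the largest rise among the members. IMPDH2 was lower by -0.63 and -0.68 (adjusted p 5.05e-09 and 1.98e-09).

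The ratio of IMPDH1 to IMPDH2 moved from 0.233 to 0.241 in shCtrl to 0.528 to 0.539 in shTRIB3-1 and 0.602 to 0.721 in shTRIB3-2, without overlap between groups. IMPDH2 remained the more abundant transcript in every library. IMPDH1 was higher in shTRIB3-2 than in shTRIB3-1 by 0.22 (limma adjusted p 0.00177), while the difference of IMPDH2 was -0.053 (adjusted p 0.216). Same-strand annotations share 32.8% of the 5123 annotated exon bases of IMPDH2, so some of its fragments could belong to them. Its FPKM rests on a length of 2075 bases, so this share need not hold for the bases that were counted. GMPS, which makes GMP from XMP with glutamine, was lower by -0.40 and -0.31 (adjusted p 7.97e-06 and 8.19e-05).

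**Figure D3:**
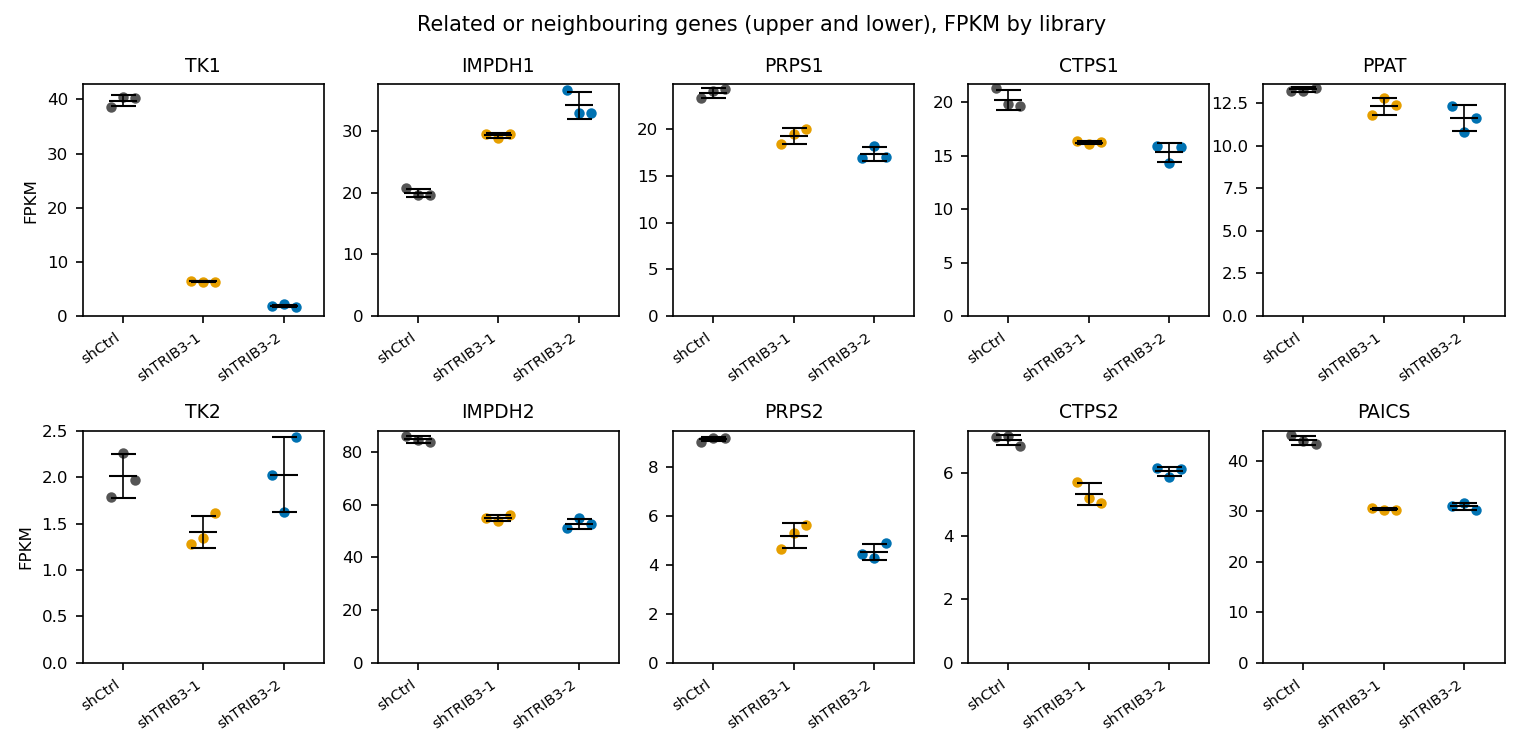
FPKM in each library (points) with group mean and SD (bars) for 4 pairs of related enzymes and the neighbours PPAT and PAICS, each pair in a column (grey shCtrl, orange shTRIB3-1, blue shTRIB3-2). IMPDH1 and IMPDH2 move in opposite directions, and TK1 and TK2 reach similar levels in shTRIB3-2 (1.90 and 2.03 FPKM on average).

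The 3 folate members, which exchange one-carbon units in the cytosol, were lower with both hairpins. SHMT1, which moves a carbon from serine to folate, averaged 27.9 ± 0.287 FPKM for shCtrl, 17.2 ± 0.572 for shTRIB3-1 and 14.7 ± 0.310 for shTRIB3-2 (SD, n = 3), with log2 fold changes of -0.69 with shTRIB3-1 and -0.92 with shTRIB3-2 (limma adjusted p 4.88e-09 and 3.02e-10). MTHFD1, which makes the formyl-folate used by the purine pathway, averaged 42.8 ± 1.23, 27.1 ± 0.562 and 23.3 ± 1.60 FPKM in the same order, with -0.66 and -0.87 (adjusted p 7.62e-08 and 4.85e-09). Of MTHFD1 exon bases, 11.1% lie antisense to other annotated genes. MTR, methionine synthase, was lower by -0.56 and -0.36 (adjusted p 7.42e-06 and 3.31e-04). SHMT1 and MTHFD1 were lower in shTRIB3-2 than in shTRIB3-1, by -0.23 and -0.22 (adjusted p 2.64e-04 and 0.00257).

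The stronger hairpin did not lower the members evenly. Between shTRIB3-2 and shTRIB3-1, 11 members were lower (20.7% of tested genes), 6 were higher (25.1%) and 14 did not pass, with a median of -0.093 against 0.025 over the tested genes. Past the fold threshold, 2 members were lower, TK1 and RRM2 (1.79% of tested genes), and 0 were higher by limma, by an unadjusted p under 0.05 and by limma voom (0.284% of tested genes). RRM1 followed at -0.76 (limma adjusted p 4.63e-06), then DUT at -0.44 (adjusted p 8.24e-04), DTYMK at -0.42 (adjusted p 1.71e-05), PFAS and SAMHD1. The 6 higher members were TK2, TYMS, IMPDH1, MTR, CTPS2 and DCTD, and this count was the least stable: it was 2 without replicate 3 of shTRIB3-2 and 3 without its replicate 1.

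Markers of DNA replication and division fell together with these genes. Of 24 proliferation genes listed, 23 were tested and 23 were lower with shTRIB3-1, with shTRIB3-2 and between the hairpins, with median log2 fold changes of -1.77, -2.55 and -0.98. In the same comparisons, 41.5%, 40.5% and 20.7% of tested genes were lower. MKI67, a marker of cycling cells, read 28.9, 26.9 and 26.0 FPKM in shCtrl, 6.77, 6.32 and 7.24 in shTRIB3-1 and 3.44, 3.08 and 3.11 in shTRIB3-2. This order of the groups was that of TK1, RRM2, RRM1, DTYMK and DUT, and differed from that of TYMS and CAD. It was not particular to these genes. SAMHD1, DHODH, CTPS1, PRPS1, PFAS, SHMT1, MTHFD1 and TRIB3 itself showed the same order, without overlap between groups. The share of all tested genes with this order was not computed, so it cannot be said whether the members show it more often. The part of these genes in the changes of the 31 members was not tested, and in bulk RNA fewer cycling cells and less RNA per cell cannot be told apart. The summed level of the hepatocyte markers was 8381 to 9034 FPKM in shCtrl, 8601 to 9040.1 in shTRIB3-1 and 10815 to 11129 in shTRIB3-2. ALB, at 4929 to 6715 FPKM over the libraries, was the largest part of this sum. The markers were not compared between groups one by one.

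Genes of the same pathways outside the 31 were read from lists of 70 genes, of which 57 were tested. With shTRIB3-1, 30 were lower (41.5% of tested genes) and 17 higher (32.9% of tested genes), with a median of -0.22. With shTRIB3-2, 31 were lower (40.5%) and 15 higher (35.4%), with a median of -0.15. Past the fold threshold, 2 were lower with shTRIB3-1 (6.10% of tested genes) and 5 with shTRIB3-2 (6.27%), and 5 were higher with each (5.39% and 6.06%). The lower ones were SLC25A32 and PSAT1, which serve folate and its supply of carbon, and with shTRIB3-2 also SHMT2, PHGDH, of serine synthesis (log2 fold change -1.41), and NUDT1, which clears oxidized nucleotides (log2 fold change -1.69). The higher ones were CDA, UPP1, TYMP, AMPD3 and GDA, which take nucleosides, nucleotides and bases apart or convert them. AMPD3 was under 1 FPKM in every control and entered the test only through the libraries where it is high, which leaves 4 with controls of at least 1 FPKM. It is also among the 17 and 15 higher genes counted above.

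Among 17 tested folate and one-carbon genes, 10 and 14 were lower with shTRIB3-1 and shTRIB3-2 and 3 and 1 were higher. Over all tested genes, 41.5% and 40.5% were lower and 32.9% and 35.4% higher. PSAT1, of serine synthesis, read 168, 173 and 170.1 FPKM in shCtrl, 61.7, 60.3 and 65.2 in shTRIB3-1 and 45.7, 42.8 and 45.1 in shTRIB3-2 (log2 fold changes -1.45 and -1.94, limma adjusted p 1.24e-11 and 8.21e-13). SLC25A32, the mitochondrial folate carrier, was lower by -1.06 and -1.17 (adjusted p 1.88e-08 and 6.56e-09).

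The mitochondrial folate enzymes SHMT2 and MTHFD2 did not move together. SHMT2 read 76.8, 78.3 and 77.4 FPKM in shCtrl, 48.8, 48.8 and 49.8 in shTRIB3-1 and 34.8, 34.1 and 34.3 in shTRIB3-2 (log2 fold changes -0.66 and -1.17, limma adjusted p 6.37e-10 and 4.15e-12). MTHFD2 read 19.1, 18.5 and 19.1 FPKM in shCtrl, 26.7, 26.6 and 27.1 in shTRIB3-1 and 18.6, 17.5 and 17.1 in shTRIB3-2. With shTRIB3-1, MTHFD2 rose by 0.50 (adjusted p 1.09e-07). With shTRIB3-2 its value was -0.09 (adjusted p 0.0434), a call that was lost in 12 of 20 alternative settings and whose libraries overlapped the controls. The direct difference between the hairpins was -0.59 (adjusted p 2.01e-07). Of MTHFD2 exon bases, 14.1% lie antisense to other annotated genes.

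The rises past the fold threshold lay in salvage and breakdown. CDA, the cytidine deaminase that also inactivates cytidine analog drugs, read 18.5, 15.7 and 15.3 FPKM in shCtrl, 83.1, 87.5 and 77.5 in shTRIB3-1 and 74.3, 81.8 and 77.2 in shTRIB3-2. It was 5.01-fold and 4.71-fold above the control mean (log2 fold changes 2.32 and 2.23, limma adjusted p 4.21e-11 and 3.82e-11), every knockdown library lay above every control, and the hairpins overlapped. UPP1 and TYMP, the uridine and thymidine phosphorylases, were higher by 1.60 and 1.44 (adjusted p 4.68e-08 and 1.10e-07) and by 1.05 and 1.29 (adjusted p 2.14e-09 and 2.84e-10). TYMP degrades the thymidine that TK1 would phosphorylate, and stood at 8.31 ± 0.569, 17.3 ± 0.651 and 20.5 ± 0.296 FPKM (SD, n = 3).

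The AMP deaminases of purine breakdown went in opposite directions. AMPD2 was the more abundant in every library, at 16.3, 15.8 and 16.8 FPKM in shCtrl, 10.7, 9.57 and 10.6 in shTRIB3-1 and 10.5, 9.94 and 10.5 in shTRIB3-2, and fell with both hairpins (log2 fold changes -0.66 and -0.65, limma adjusted p 1.44e-07 and 1.40e-07). AMPD3 stood at 0.294 to 0.331 FPKM in shCtrl, on 56 to 63 fragments, at 1.67 to 2.07 in shTRIB3-1 and at 2.48 to 2.78 in shTRIB3-2. Its log2 fold changes, 2.24 and 2.74, are given without a test. GDA, guanine deaminase, read 3.42, 3.29 and 3.65 FPKM in shCtrl, 8.06, 7.51 and 7.50 in shTRIB3-1 and 11.3, 10.6 and 10.7 in shTRIB3-2 (log2 fold changes 1.13 and 1.63, limma adjusted p 2.74e-09 and 9.37e-11). These genes were not typical of their lists: of 22 tested salvage genes 9 and 7 were higher and 12 and 10 lower, and of 14 tested breakdown genes 5 and 6 were higher and 5 and 5 lower. The breakdown rises include AMPD3, which entered the test only through the libraries where it is high. Over all tested genes, 32.9% and 35.4% were higher and 41.5% and 40.5% lower. Of 4 other tested synthesis genes, RRM2B among them, 3 and 2 were lower and 0 and 1 higher with the respective hairpins, and both limma voom and an unadjusted p under 0.05 gave the same 0 and 1.

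**Figure D4:**
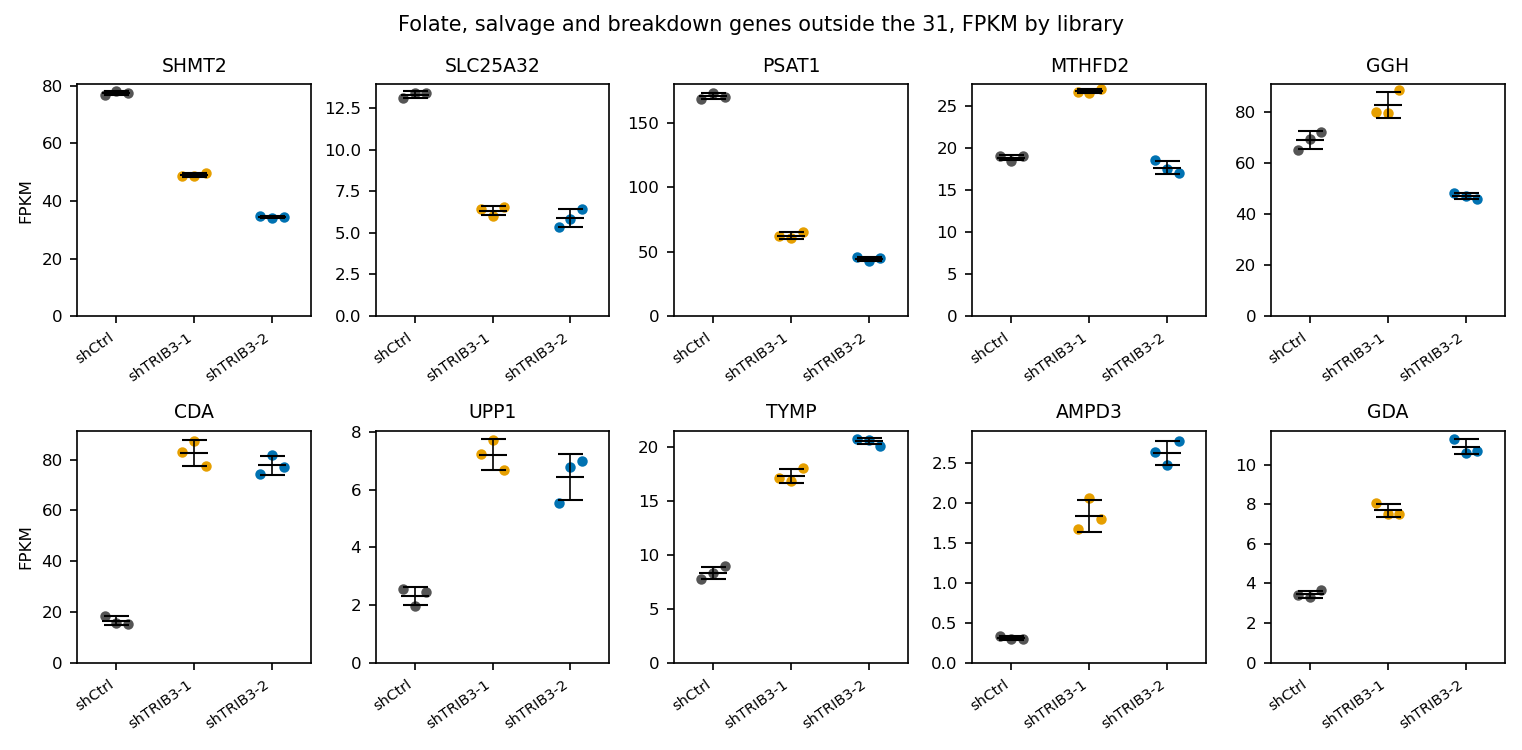
FPKM in each library (points) with group mean and SD (bars) for folate and one-carbon genes (upper row) and salvage and breakdown genes (lower row) outside the 31 (grey shCtrl, orange shTRIB3-1, blue shTRIB3-2). SHMT2, SLC25A32 and PSAT1 lie below the controls with both hairpins, MTHFD2 lies above them with shTRIB3-1 alone, GGH, a folate hydrolase, lies above them with shTRIB3-1 and below them with shTRIB3-2, and the 5 genes of the lower row lie above the controls.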

How the data were processed

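RNA-seq was analysed in 9 HepG2 libraries, 3 per group, grouped by their labels. The values are FPKM, computed and deposited by the authors for 24204 gene symbols. The study's methods name STAR for alignment to GRCh38 and DESeq2 for the authors' tests. The submitters' processing notes name HTSeq and R 3.2.0. The methods describe strand-specific libraries, but the labels name a different kit. The annotation and the strand setting of the counting are not given in the sources used here. FPKM does not correct for composition, so large changes in abundant genes shift the others.

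Depth was worked out from the FPKM: 100.0% of 172769 values above 0 were whole fragment numbers within 0.02. Genes with FPKM of at least 1 in at least 3 libraries were tested on log2(FPKM + 0.1), which understates changes of low genes, with limma 3.58.1 in R 4.3.3 (group means, mean-variance trend, two-sided, Benjamini-Hochberg over 11265 genes). The method was tested on simulated data. Alternatives covered pseudocount, filter, scaling, test, left-out libraries and a replicate block. Positions and overlaps are from GENCODE 44 on GRCh38, promoters from RefSeq on GRCh38.p14. Overlap shares are of all GENCODE exon bases of a gene. These differ from the lengths behind the FPKM, so the shares need not hold for the gene models that were counted. Replicates differed by more than sampling noise, with a chi-square per degree of freedom of 3.13 to 7.54. Nothing says that replicates were separate cultures, so p-values measure the spread between these libraries, which may be technical.

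The members and lists were chosen with earlier results of these data known. Values in every library are given for members past both thresholds in either comparison with shCtrl, for the 5 that differed most between hairpins, for named pairs and for the 2 largest rises. Of the other lists, genes past both thresholds in the same direction with both hairpins are named, plus TRIB3, RRM2B, SHMT2 and MTHFD2. MKI67, NUDT1, PHGDH, AMPD2, GGH and HPRT1 were chosen after their values were seen. A few listed genes are not reported here and were left out of the list counts.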

Additional observations from a re-analysis of the deposited data

Results flagged for a closer look

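A few genes of these pathways differed between the hairpins by a direct limma test of shTRIB3-2 against shTRIB3-1, and each is given here with its log2 fold change. TK1 (-1.71) and RRM2 (-1.12) fell with both hairpins and further with shTRIB3-2. NUDT1, which clears oxidized nucleotides, was lower in shTRIB3-2 by -1.52 (adjusted p 4.44e-06) at 1.04 to 1.45 FPKM, or 33 to 47 fragments, against -0.17 with shTRIB3-1 relative to shCtrl (adjusted p 0.285). GGH, a folate hydrolase of the lysosome, differed by -0.81 (adjusted p 1.26e-07). It was higher with shTRIB3-1 (0.26, adjusted p 3.10e-04) and lower with shTRIB3-2 (-0.55, adjusted p 4.21e-07).

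MTHFD2 differed by -0.59 and HPRT1, of purine salvage, by -0.52 (adjusted p 2.01e-07 and 7.84e-06). Both were higher with shTRIB3-1, by 0.50 and 0.38 (adjusted p 1.09e-07 and 2.82e-05). With shTRIB3-2 their values were -0.09 and -0.15 (adjusted p 0.0434 and 0.0214), and both sets of libraries overlapped the controls. The call of HPRT1 with shTRIB3-2 was lost in 5 of 20 alternatives, among them without replicate 2 or replicate 3 of shCtrl (adjusted p 0.0792 and 0.0812) and without replicate 2 of shTRIB3-2 (0.0928). With 3 libraries per group, no single library was tested for lying apart from its group.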

How the results depend on the processing

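Of the recomputed counts and medians, 295 stayed within 1.5 times the reported count or 1 SD of the reported median and 5 moved. The first set includes the members lower past the fold threshold with shTRIB3-2, which were 9 with TPM, limma voom or a pseudocount of 0.01 (6 as reported). The median member log2 fold change with shTRIB3-1 was -0.40 when each library was centred on its median (-0.48 as reported). Between the hairpins, 1 member was lower past the fold threshold with a pseudocount of 1 (2 as reported), and 3 were higher when all genes above 0 were tested (6 as reported). Leaving out 1 library at a time gave 2 to 6 higher members, with 2 without shTRIB3-2 replicate 3 and 3 without shTRIB3-2 replicate 1. No value that passed the test changed sign. Values near 0 that did not pass did so for 10 comparisons of single genes, among them GART (-0.072 to 0.0029) and NME1 (-0.071 to 0.044) with shTRIB3-2. Centring also turned the median of all tested genes, to 0.024 with shTRIB3-1, 0.017 with shTRIB3-2 and -0.0033 between the hairpins.

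Of the named genes' values, 2804 kept their side of the threshold, 44 lost it and 20 gained it. Between the hairpins, the largest adjusted p was 0.118 for DCTD, 0.134 for GART, 0.10 for MTR, 0.0782 for CTPS2 and 0.0588 for PRPS1. Single libraries that ended such a call were replicates 1 and 3 of shTRIB3-1 and any of shTRIB3-2 for DCTD (0.0556 to 0.0780), replicates 2 and 3 of shTRIB3-1 and 2 of shTRIB3-2 for GART (0.0806 to 0.0891), replicates 2 of shTRIB3-1 and 1 and 3 of shTRIB3-2 for MTR (0.0715 to 0.10), replicates 2 and 3 of shTRIB3-1 and 1 and 3 of shTRIB3-2 for CTPS2 (0.0525 to 0.0782), and replicates 3 of shTRIB3-1 and 1 of shTRIB3-2 for PRPS1 (0.0537 and 0.0588). With shTRIB3-1, GART passed as higher without replicate 1 of that hairpin (0.0298), with libraries centred on their medians (0.00218) and with quantile normalization (0.0333). NME1 also passed as higher with centring (0.0359), where 6 members were higher (4 as reported). PPAT passed as lower without replicate 2 of shTRIB3-2 (0.0391), with TPM (0.0260) and with only the 2 groups compared (0.0417). With shTRIB3-2, MTHFD2 reached 0.393, and its call was also lost without replicate 1 or 3 of shCtrl, any library of shTRIB3-1, or replicate 2 or 3 of shTRIB3-2. Rescaling to TPM moved the median of all tested genes with shTRIB3-1 to -0.11 from -0.056.

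Deviations from the group mean correlated weakly between libraries that share a replicate number (Pearson r -0.0742 to 0.0933) and between others (-0.0756 to 0.0479). Between the knockdown groups, every same-number pair (0.0279 to 0.0933) lay above every other pair (-0.0756 to 0.0137). This also held between shCtrl and shTRIB3-1, but not between shCtrl and shTRIB3-2. Whether the number pairs libraries is therefore not settled. With the replicate block, 24 members were lower and 4 higher with each hairpin, and 12 were lower and 6 higher between the hairpins, where PRPS2 was gained (adjusted p 0.0354). Counting limits low genes most, such as TK1 in shTRIB3-2.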
